A study of Mus musculus with 27 samples.

Results

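The 10 genes described here encode integrin subunits, 6 alpha chains (Itgam, Itgax, Itgal, Itga4, Itga5 and Itgav) and 4 beta chains (Itgb2, Itgb1, Itgb3 and Itgb5). They were chosen by gene name from the 54532 genes of the deposited count table, and all 10 were found and passed the filter on low counts in both experiments. RNA was sequenced from mixed glia cultures, which hold astrocytes, microglia and other glia, prepared from the brain cortex of C57BL/6 mouse pups aged 3 to 6 days, grown for 14 days and treated for 24 h. Experiment 1 (15 libraries) compared LPS+IFNγ+bryostatin, LPS+IFNγ, LPS+bryostatin, LPS and no treatment; experiment 2 (12 libraries) compared IL-4+bryostatin, IL-4, bryostatin and no treatment, with 3 libraries in each of the 9 groups. Bryostatin, a macrocyclic lactone that binds the C1 domains of protein kinase C, was given at 50 nM, LPS (bacterial lipopolysaccharide, a ligand of Toll-like receptor 4) at 100 ng/mL, and the cytokines IFNγ and IL-4 at 20 ng/mL each. The cultures are pooled cells rather than sorted microglia, and the labels do not say whether the 3 libraries of a group came from separate cultures, so each p-value measures the spread between libraries. Between 17230058 and 28687281 reads were counted per library.

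Integrins are cell surface receptors made of 1 alpha and 1 beta chain. They bind matrix proteins or receptors on other cells, and their grip is switched on from inside the cell by talin and kindlin bound to the beta tail. Itgb2 (CD18) pairs with Itgal (CD11a) to form LFA-1, with Itgam (CD11b) to form complement receptor CR3 and with Itgax (CD11c) to form CR4; these receptors belong to leukocytes, and in brain tissue to microglia and other myeloid cells. Itgb1, Itgb3 and Itgb5 pair with alpha chains that bind fibronectin, vitronectin, osteopontin or VCAM-1 and are made by many cell types. Protein kinase C is known to take part in the activation of integrins at the cell surface. Only transcripts were measured here, and in such bulk libraries fewer cells of a type cannot be told apart from less RNA per cell.

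The genes lie on 7 mouse chromosomes of the mm10 build, by the coordinates of the deposited table. Itgam, at chr7:128062640-128118491, and Itgax, at chr7:128129547-128150657, are neighbours on the plus strand, and Itgal lies on the same chromosome and strand at chr7:127296260-127335138. Itgb2 is at chr10:77530252-77565708, Itga4 at chr2:79255426-79333123, Itgav at chr2:83724397-83806916, Itgb1 at chr8:128685654-128733200, Itgb3 at chr11:104608000-104670476 and Itgb5 at chr16:33829665-33949338, all on the plus strand, while Itga5 lies on the minus strand at chr15:103344286-103366763. Of the exonic bases of Itgam, 68.7% (3450 of 5024) also lie in exons of Gm49368, a gene model on the same strand that had at most 4 counts in any library. Whether reads in the shared bases were left out of the count of Itgam was not tested; a comparison of Itgam between groups does not use its length, but its level per length set beside other genes does. Itga4 and Itgav share 8.04% and 5.9% of their exonic bases with the antisense genes Cerkl and Gm13684, which had at most 32 and 11 counts, and Itgax shares 384 of its 4790 transcript words of 50 bases with Itgad, which had at most 2 counts.

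Promoter sequences were held by the RefSeq table (GRCm38.p6, the patch release of the same build) for 7 of the 10 genes, not for Itgal, Itgb2 and Itgb3. The 250 bases before the start are shown for the neighbours Itgam and Itgax, which rose with different treatments, and for Itga5 and Itgb5, which changed in opposite directions with LPS. They come from chr7:128062390-128062639, chr7:128129300-128129549, chr15:103366792-103367041 (minus strand) and chr16:33829415-33829664. Capitals mark matches to 6 short motifs searched on both strands. These were GAGGAA, the core of sites of the myeloid factor PU.1, a STAT6 type site of TTC and GAA with any 4 bases between them, TGANTCA, an AP-1 site, an NF-kB type site of 10 bases, GGGCGG, a GC box, and the core of an interferon-stimulated response element, GAAA repeated with any 2 bases between.
Itgam: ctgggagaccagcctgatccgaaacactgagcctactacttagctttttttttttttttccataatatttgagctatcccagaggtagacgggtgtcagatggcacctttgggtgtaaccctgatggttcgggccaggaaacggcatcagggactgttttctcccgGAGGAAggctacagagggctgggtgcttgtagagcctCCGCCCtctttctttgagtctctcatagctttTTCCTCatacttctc
Itgax: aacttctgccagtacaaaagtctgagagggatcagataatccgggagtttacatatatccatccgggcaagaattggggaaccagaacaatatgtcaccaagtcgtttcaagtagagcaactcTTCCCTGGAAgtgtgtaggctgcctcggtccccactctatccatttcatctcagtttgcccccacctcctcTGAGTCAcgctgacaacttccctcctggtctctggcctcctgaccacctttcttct
Itga5: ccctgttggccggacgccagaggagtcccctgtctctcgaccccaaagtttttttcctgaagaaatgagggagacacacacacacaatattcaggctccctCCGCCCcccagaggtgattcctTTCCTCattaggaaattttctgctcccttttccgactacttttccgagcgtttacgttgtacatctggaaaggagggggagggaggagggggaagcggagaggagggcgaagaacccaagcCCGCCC
Itgb5: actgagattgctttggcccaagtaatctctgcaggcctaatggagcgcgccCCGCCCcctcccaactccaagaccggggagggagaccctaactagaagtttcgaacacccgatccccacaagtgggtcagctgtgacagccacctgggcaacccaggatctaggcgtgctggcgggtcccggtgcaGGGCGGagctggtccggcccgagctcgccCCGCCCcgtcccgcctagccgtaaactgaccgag

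In the Itgam promoter, the PU.1 core letters were found from position -84 to -79 and, on the other strand, from -15 to -10, counted from the base before the start, and a GC box match from -47 to -42. The PU.1 core is common, since 23.1% of the 27025 promoters in the table hold it, and 4 of the 7 integrin promoters do. The Itgax promoter held none, but a STAT6 type match from -127 to -118, a pattern present in 5.86% of all promoters, and an AP-1 match from -56 to -50, present in 6.87%; of the 7 integrin promoters, each of these 2 patterns was found in that of Itgax alone. Itga5 held a PU.1 core match from -127 to -122 and GC box matches from -149 to -144 and from -6 to -1. Itgb5 held 3 GC box matches, a motif present in 32.9% of promoters. The NF-kB type and interferon response patterns, in 0.94% and 3.04% of all promoters, were found in none of the 7. These are matches of letters within 250 bases and not measured binding sites.

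Levels are given as CPM, read counts scaled to a common library size with trimmed-mean (TMM) factors within each experiment, and folds and adjusted p-values are from edgeR's quasi-likelihood test over all genes measured in that experiment. A gene is said to have risen or fallen where its adjusted p was under 0.05. In each experiment the untreated library labelled replicate 1 stood apart. In experiment 1 it had 0.161 CPM of Sox10, a transcription factor of oligodendrocyte lineage cells, against 7.12 to 34.5 CPM in the other 14 libraries. In experiment 2 it had 39.1 CPM of Sox10, against 0.0354 to 0.483 CPM in the other 11. Integrins moved with it: Itgb1 was 1328 CPM in that library of experiment 1, against 919 to 1202 CPM in the others, and 900 CPM in that of experiment 2, against 1443 to 1608 CPM. Each of the pair lay closer to the libraries of the other experiment in Sox10 and in Pdgfra, another gene of that lineage. Pdgfra was 3.92 CPM in the library of experiment 1, against 30 to 167 CPM in the others of that experiment and 3.95 to 12.4 CPM in the 11 others of experiment 2, and 96.2 CPM in that of experiment 2. Itgav, at 291 CPM in the library of experiment 1, likewise lay outside its own experiment (156 to 241 CPM) and within the other (196 to 445 CPM). Whether these libraries were exchanged between the experiments was not tested; the labels were kept as given, so every untreated mean includes the library labelled replicate 1, and results that rest on these libraries are also given without them. The markers of glia were present: the 8 astrocyte markers summed to at least 4635 CPM and the 12 microglia and macrophage markers to at least 334 CPM in every library. Markers of other cells were present too, as the 7 fibroblast and mural markers summed to 2028 to 4681 CPM across the libraries. The 6 T and NK cell markers summed to at most 0.25 CPM and the 5 neutrophil markers to at most 1.19 CPM, with S100a9, Elane and Mpo at 0 counts in all 9 groups.

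**Figure D1:**
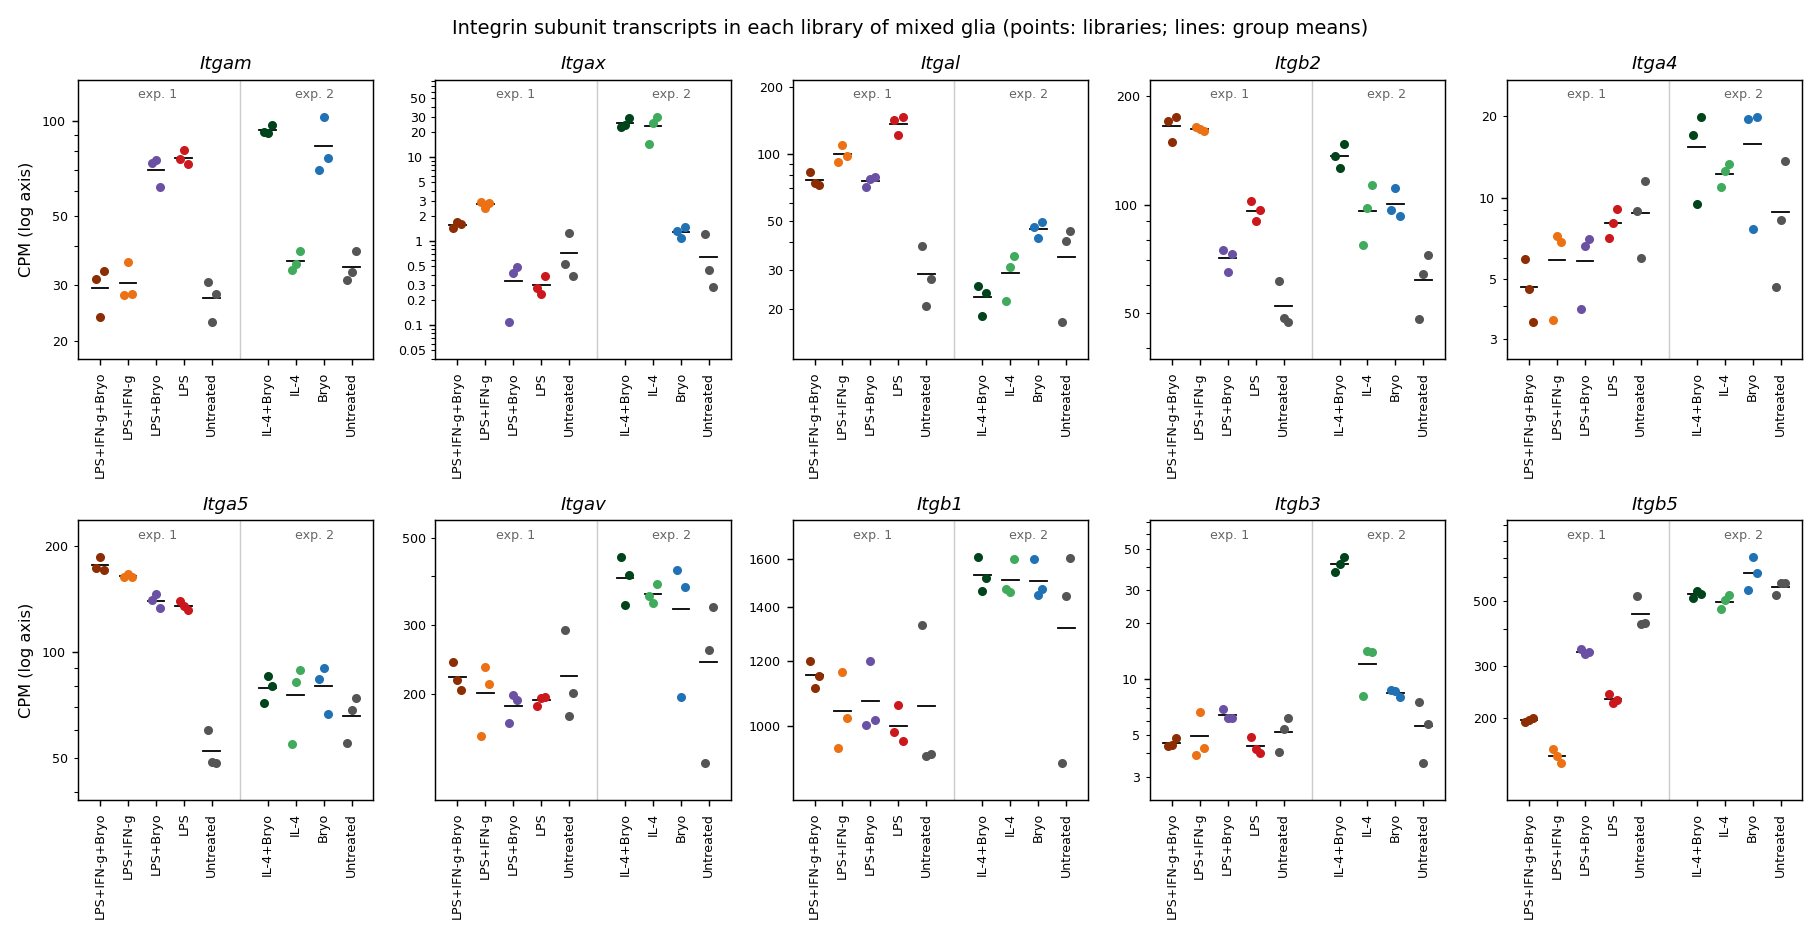
Level of each integrin subunit in every library, in CPM on a log axis, with experiment 1 left of the grey line and experiment 2 right of it; points are libraries and lines are group means of 3. Itgax spans 0.108 to 30.3 CPM and is highest with IL-4, Itga5 and Itgb2 are highest in the LPS+IFNγ groups, and Itgb5 is lowest there.

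Under LPS, 5 of the 10 subunits changed, 4 upward and 1 downward, in a comparison in which 38.4% of all genes measured were called. The 3 leukocyte chains Itgal, Itgam and Itgb2 and the fibronectin receptor chain Itga5 rose, and Itgb5 fell. Itgal, the alpha chain of LFA-1, had 142, 122 and 147 CPM with LPS, against 38.4, 20.7 and 27.4 CPM in untreated cultures. Every LPS library lay far above every untreated one, and the rise was 4.76-fold (log2 2.25 ± 0.16 (SE), adjusted p 2.3e-08, edgeR). Itgam had 75.4, 80.7 and 73 CPM with LPS, against 30.8, 22.9 and 28.1 CPM in untreated cultures, 2.8-fold higher (log2 1.49 ± 0.14, adjusted p 2.7e-07, edgeR). Its groups did not overlap either. Itgb2, their common partner, rose less, with 102, 89.8 and 96.4 CPM under LPS against 61.3, 48.5 and 47.2 CPM in untreated cultures (1.83-fold, log2 0.87 ± 0.10, adjusted p 3e-06, edgeR). The 3 chains of LFA-1 and CR3 were thus all higher in every LPS library than in any untreated one.

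The list of 12 microglia and macrophage markers went the other way in sum, with 526 to 581 CPM under LPS and 1157 to 1365 CPM in untreated cultures. Of the 11 measured, 3 rose (Ptprc, Aif1 and Spi1) and 8 fell. The part of cell number in the integrin values was not tested. Without the untreated library labelled replicate 1 the folds of Itgal, Itgam and Itgb2 were log2 2.51, 1.59 and 1.01, and their calls held.

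Among the chains that are not restricted to leukocytes, Itga5, which pairs with Itgb1 as the main fibronectin receptor, had 140, 135 and 132 CPM with LPS, against 60.2, 48.9 and 48.5 CPM in untreated cultures. The groups were far apart and tight, and the rise was 2.58-fold (log2 1.37 ± 0.08, adjusted p 1.1e-09, edgeR). Itgb5, which joins Itgav to form a vitronectin receptor used in the uptake of dying cells, had 242, 226 and 230 CPM with LPS, against 519, 418 and 420 CPM in untreated cultures, 1.94-fold lower (log2 -0.96 ± 0.08, adjusted p 1.1e-07, edgeR). All 3 LPS libraries lay below all untreated ones. The 7 fibroblast and mural markers summed to 3782 to 4568 CPM with LPS and to 2522 to 3614 CPM in untreated cultures. Of them, 4 rose and 2 fell. The 8 astrocyte markers summed to 8520 to 9029 CPM with LPS and to 11072 to 13911 CPM in untreated cultures, with 4 lower and 2 higher (median log2 -0.30). The part of either cell type in these changes was not tested. Itga4, Itgav, Itgb1 and Itgb3 did not pass the test, with log2 differences between -0.25 and -0.08. Itgax was near the floor of the data, with 0.275, 0.237 and 0.382 CPM under LPS against 0.536, 1.24 and 0.382 CPM in untreated cultures, and missed the threshold (log2 -1.26 ± 0.50, adjusted p 0.057, edgeR). It passed with DESeq2 (adjusted p 0.0454) and in edgeR without the untreated library labelled replicate 1 (log2 -1.42, adjusted p 0.038) or replicate 3 (log2 -1.57, adjusted p 0.023). Without untreated replicate 2, the highest library at 1.24 CPM, the difference was log2 -0.62 (adjusted p 0.37).

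With LPS+IFNγ the leukocyte set was made up differently. Against untreated cultures 5 subunits changed, beside 58.1% of all genes: Itgb2, Itgal, Itgax and Itga5 rose and Itgb5 fell. Itgb2 had 164, 162 and 160 CPM with LPS+IFNγ, against 61.3, 48.5 and 47.2 CPM in untreated cultures (3.1-fold, log2 1.63 ± 0.10, adjusted p 8.6e-10, edgeR). Itgam had 27.9, 35.7 and 28.2 CPM with LPS+IFNγ, against 30.8, 22.9 and 28.1 CPM in untreated cultures, with overlap, and did not pass (log2 0.17 ± 0.14, adjusted p 0.32, edgeR). Itga5 (164, 167 and 164 CPM) was 3.13-fold higher and Itgb5 (157, 149 and 141 CPM) 3.04-fold lower than in untreated cultures, and no library of either gene overlapped with the untreated ones. The microglia and macrophage markers summed to 424 to 450 CPM with LPS+IFNγ and 1157 to 1365 CPM in untreated cultures, with 4 of 11 measured higher and 7 lower. The astrocyte markers summed to 6573 to 7066 CPM and 11072 to 13911 CPM, with 5 of 8 lower and 1 higher (median log2 -0.70). The part of either cell type in these changes was not tested. The calls of these 5 subunits held in all 12 alternatives tried, with adjusted p-values up to 0.0093. That number holds the fit without untreated replicate 1 as a single library left out and again as an alternative of its own. Without untreated replicate 2 the rise of Itgax was log2 2.57 in place of 1.93.

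**Figure D2:**
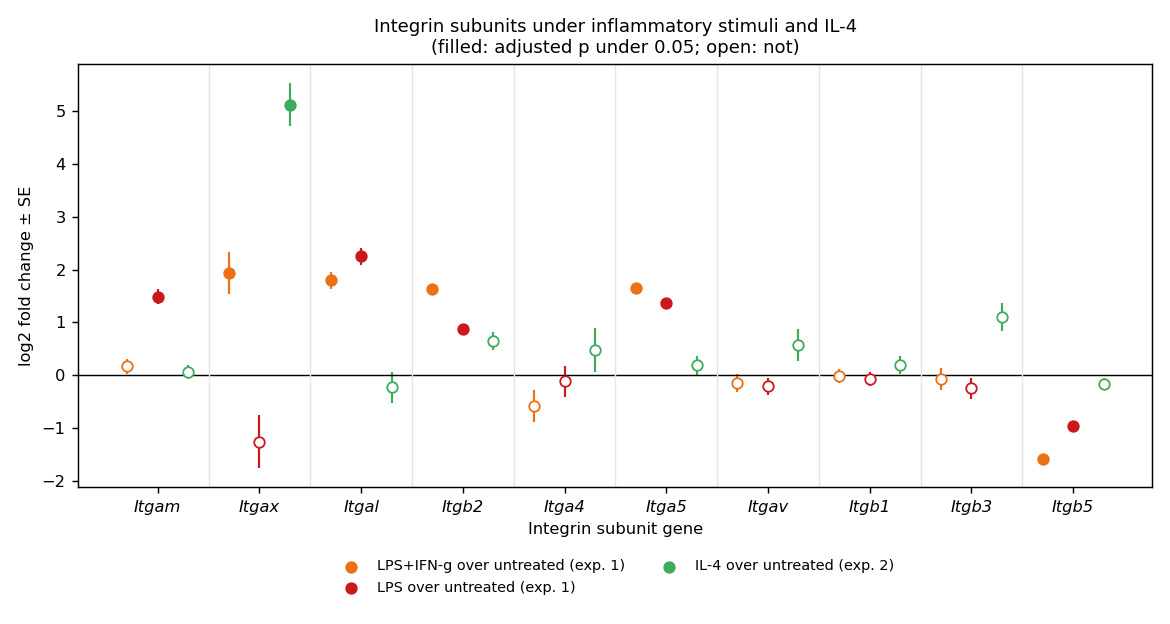
Log2 fold change of each subunit with LPS+IFNγ, LPS or IL-4 over the untreated cultures of the same experiment (edgeR, bars are 1 SE, filled points have an adjusted p under 0.05). Itgam rises with LPS (1.49) and not with LPS+IFNγ (0.17), Itgax rises with LPS+IFNγ (1.93) and IL-4 (5.13), and Itgb5 falls with both LPS treatments.

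Set directly against LPS, LPS+IFNγ changed 6 subunits, with 36.0% of all genes called. Itgax had 2.91, 2.5 and 2.87 CPM with LPS+IFNγ, against 0.275, 0.237 and 0.382 CPM with LPS, 9.11-fold higher (log2 3.19 ± 0.45, adjusted p 4.3e-05, edgeR), still a low level. Itgam was 2.5-fold lower with LPS+IFNγ than with LPS (log2 -1.32 ± 0.14, adjusted p 1.7e-06, edgeR), and no library overlapped. Itgb2 was 1.69-fold higher (log2 0.76 ± 0.10, adjusted p 1.7e-05) and Itgb5 1.56-fold lower (log2 -0.64 ± 0.08, adjusted p 1.5e-05). The changes of Itga5 (log2 0.28 ± 0.08) and Itgal (log2 -0.45 ± 0.15, 92.3, 110 and 97.7 CPM against 142, 122 and 147 CPM) were smaller. That of Itgal was lost without LPS replicate 1 (adjusted p 0.082), LPS replicate 3 (0.1), LPS+IFNγ replicate 1 (0.1) or LPS+IFNγ replicate 3 (0.09). The 4 dendritic cell markers summed to 36.9 to 46.7 CPM with LPS+IFNγ and to 8.48 to 9.28 CPM with LPS. Ccr7 moved most, with means of 27.2 and 0.399 CPM, beside 4.6 and 2.44 CPM for Xcr1 and 9.23 and 6.05 CPM for Zbtb46. Itgax is itself used as a dendritic cell marker, and the part of such cells was not tested. Of the 11 microglia and macrophage markers measured, 1 was higher and 7 were lower with LPS+IFNγ than with LPS.

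IL-4 changed 1 subunit, Itgax, beside 0.583% of all genes. Itgax had 14.3, 25.2 and 30.3 CPM with IL-4, against 1.21, 0.45 and 0.285 CPM in untreated cultures. Every IL-4 library lay far above every untreated one, of which replicate 1 was the highest, and the level was 34.9-fold higher (log2 5.13 ± 0.41, adjusted p 8.9e-05, edgeR). Without the untreated library labelled replicate 1 it was log2 5.95. The dendritic cell markers summed to 8.35 to 9.47 CPM with IL-4 and 7.6 to 9.06 CPM in untreated cultures, and the microglia and macrophage markers to 1033 to 1452 CPM and 1402 to 1538 CPM. The sum of the 6 endothelial markers was higher, at 89.9 to 123 CPM with IL-4 and 39.2 to 47.5 CPM in untreated cultures. Flt1 alone averaged 78.9 CPM with IL-4 and 13.1 CPM in untreated cultures. Of the 5 measured (median log2 0.18), Pecam1 (log2 5.02, adjusted p 5.4e-05) and Flt1 (log2 2.59, adjusted p 8.9e-05, edgeR) rose, 3 did not pass and 0 fell. Cldn5 was at 0 counts in both groups, and the part of endothelial cells was not tested. Itgam, with 33.6, 35.1 and 38.7 CPM under IL-4 and 31.2, 33.2 and 38.5 CPM in untreated cultures, differed by log2 0.06 with a 95% interval from -0.22 to 0.34. Itgb3, the chain of the vitronectin receptor that also takes part in platelet aggregation, had 8.15, 14.2 and 14 CPM with IL-4, against 7.55, 3.55 and 5.75 CPM in untreated cultures, and missed the threshold (log2 1.10 ± 0.26, adjusted p 0.12, edgeR). It passed without IL-4 replicate 1 (adjusted p 0.037) or the untreated library labelled replicate 1 (adjusted p 0.048). Itgb2 had a log2 difference of 0.64 ± 0.17 and did not pass (adjusted p 0.19, edgeR).

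Without LPS, bryostatin raised Itgam, and with IL-4 present it raised Itgb3 as well. Given alone, it changed 2 subunits beside 3.62% of all genes. Itgam had 69.8, 103 and 76 CPM with bryostatin, against 31.2, 33.2 and 38.5 CPM in untreated cultures, 2.42-fold higher and without overlap (log2 1.27 ± 0.14, adjusted p 0.0014, edgeR). The rise was log2 1.19 without the untreated library labelled replicate 1 and log2 1.01 (adjusted p 1e-05) without that library, bryostatin replicate 2 and IL-4+bryostatin replicate 2, 3 libraries that lay apart from their groups. With the spread taken from the 6 libraries of the comparison alone, its adjusted p was 0.1. Itgb2 had 96.5, 111 and 93 CPM with bryostatin, against 48.3, 64.1 and 72.6 CPM in untreated cultures (1.62-fold, log2 0.70 ± 0.17, adjusted p 0.044, edgeR). Although its groups did not overlap, this call was lost in 8 of 13 alternatives, with adjusted p-values up to 0.28. Both counts hold the fit without untreated replicate 1 as a single library left out and again as an alternative of its own. The call was lost without any 1 of the bryostatin libraries (0.11, 0.089 and 0.089) and without untreated replicate 1 (log2 0.53, adjusted p 0.099) or 2 (adjusted p 0.083). The microglia and macrophage markers summed to 1333 to 1772 CPM with bryostatin and 1402 to 1538 CPM in untreated cultures, and 0 of 12 were called. The 8 astrocyte markers summed to 8024 to 9926 CPM with bryostatin and 11898 to 16309 CPM in untreated cultures, with 5 lower and 1 higher (median log2 -0.80), and their part in the integrin values was not tested.

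With IL-4 present, bryostatin raised 2 subunits, beside 4.13% of all genes. Itgam had 92.4, 91.7 and 97.1 CPM with IL-4+bryostatin, against 33.6, 35.1 and 38.7 CPM with IL-4 (2.62-fold, log2 1.39 ± 0.14, adjusted p 0.00081, edgeR). Itgb3 had 37.7, 41.3 and 45 CPM with IL-4+bryostatin, against 8.15, 14.2 and 14 CPM with IL-4, 3.42-fold higher (log2 1.77 ± 0.25, adjusted p 0.0035, edgeR). Both genes were separated without overlap, and both calls held in all 13 alternatives. The astrocyte markers summed to 7971 to 9009 CPM with IL-4+bryostatin and 11020 to 11784 CPM with IL-4, with 4 of 8 lower and 1 higher (median log2 -0.60), and the microglia and macrophage markers to 1493 to 1864 CPM and 1033 to 1452 CPM, with 1 of 12 higher and 1 lower. With bryostatin alone Itgb3 had 8.76, 8.59 and 8 CPM, against 7.55, 3.55 and 5.75 CPM in untreated cultures, and was not called (log2 0.59 ± 0.26, adjusted p 0.25, edgeR). The difference between bryostatin's effect with IL-4 and alone was log2 1.19 ± 0.36 for Itgb3 (95% interval 0.48 to 1.89) and 0.12 ± 0.20 for Itgam, with adjusted p-values of 0.94. In that test 0 of 15604 genes passed with edgeR, 327 had an unadjusted p under 0.05 and 4 passed with DESeq2. Itgax did not pass, with 22.6, 23.9 and 29.5 CPM under IL-4+bryostatin against 14.3, 25.2 and 30.3 CPM under IL-4 (log2 0.12 ± 0.30). Itgb2 had 136, 126 and 147 CPM with IL-4+bryostatin and 77.4, 97.6 and 113 CPM with IL-4, without overlap, but missed the threshold (log2 0.51 ± 0.17, adjusted p 0.13, edgeR). It passed when the untreated library labelled replicate 1 was left out of the shared estimate of spread (adjusted p 0.042).

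**Figure D3:**
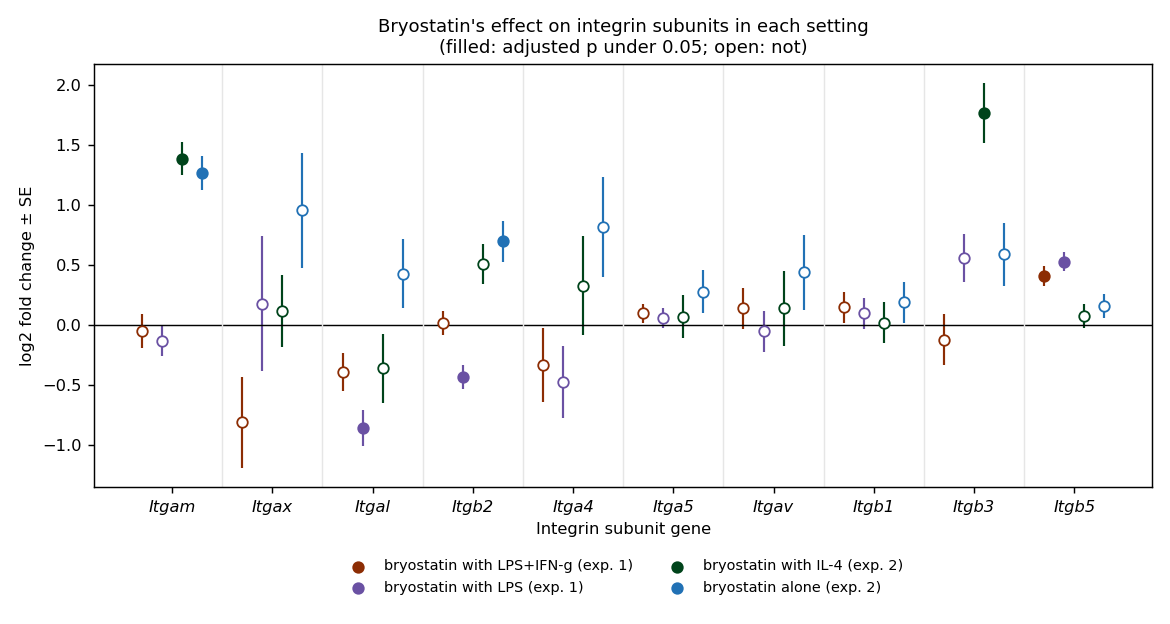
Log2 fold change of each subunit with bryostatin over the same treatment without it, in the 4 settings (edgeR, bars are 1 SE, filled points have an adjusted p under 0.05). Itgam rises alone (1.27) and with IL-4 (1.39) but not with LPS (-0.13), Itgb3 rises with IL-4 (1.77), and Itgb5 rises with LPS (0.53) and LPS+IFNγ (0.41).

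With LPS present the pattern was another. Bryostatin changed 3 subunits, beside 6.89% of all genes: Itgal and Itgb2 fell and Itgb5 rose. Itgal had 70.6, 76.9 and 78.9 CPM with LPS+bryostatin, against 142, 122 and 147 CPM with LPS, 1.81-fold lower (log2 -0.86 ± 0.15, adjusted p 0.003, edgeR). Itgb2 had 74.8, 65 and 73.1 CPM with LPS+bryostatin, against 102, 89.8 and 96.4 CPM with LPS (1.35-fold lower, log2 -0.43 ± 0.10, adjusted p 0.013, edgeR). Both chains of LFA-1 were thus lower in every LPS+bryostatin library than in any LPS library. The call of Itgb2 was lost without LPS replicate 1 (adjusted p 0.069) or LPS+bryostatin replicate 2 (adjusted p 0.083). The microglia and macrophage markers summed to 418 to 437 CPM with LPS+bryostatin and 526 to 581 CPM with LPS, with 4 of 11 measured lower and 0 higher, and of the 8 astrocyte markers 3 were lower and 1 higher; their part in these changes was not tested. Itgam did not pass, with 73.2, 75.2 and 61.5 CPM under LPS+bryostatin against 75.4, 80.7 and 73 CPM under LPS (log2 -0.13, 95% interval -0.39 to 0.13). Itgb5 had 344, 330 and 334 CPM with LPS+bryostatin, against 242, 226 and 230 CPM with LPS, 1.44-fold higher and clear of it in all libraries (log2 0.53 ± 0.08, adjusted p 0.00086, edgeR). Untreated cultures had 418 to 519 CPM. Itgb3 had 6.94, 6.2 and 6.21 CPM with LPS+bryostatin and 4.9, 4.23 and 4.04 CPM with LPS, without overlap. It did not pass (log2 0.56 ± 0.20, adjusted p 0.13, edgeR). In edgeR fits it passed with the compared groups alone (adjusted p 0.013) and without the untreated library labelled replicate 1 (adjusted p 0.044).

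With LPS+IFNγ present, bryostatin changed Itgb5 alone, beside 3.38% of all genes. It had 194, 197 and 201 CPM with LPS+IFNγ+bryostatin, against 157, 149 and 141 CPM with LPS+IFNγ (1.32-fold higher, log2 0.41 ± 0.08, adjusted p 0.012, edgeR). Of the 11 microglia and macrophage markers measured 4 were lower and 0 higher, and of the 8 astrocyte markers 3 were lower and 0 higher. The call was lost without LPS+IFNγ replicate 3 (log2 0.36, adjusted p 0.075) or LPS+IFNγ+bryostatin replicate 2 (adjusted p 0.0507). Itgal, with 82.5, 73.8 and 72.2 CPM against 92.3, 110 and 97.7 CPM, lay lower in all libraries but did not pass (log2 -0.39 ± 0.16, adjusted p 0.22, edgeR); without the untreated library labelled replicate 1 in the shared fit it did (adjusted p 0.019). Itgax had 1.42, 1.69 and 1.6 CPM with LPS+IFNγ+bryostatin and 2.91, 2.5 and 2.87 CPM with LPS+IFNγ, also without overlap, and did not pass (log2 -0.81 ± 0.38, adjusted p 0.32, edgeR). Itgb2 had 170, 149 and 175 CPM against 164, 162 and 160 CPM (log2 0.02, 95% interval -0.17 to 0.21). In the test of the difference between bryostatin's effects with LPS+IFNγ and with LPS, none of the 10 subunits passed, beside 0.118% of all genes (19 genes with edgeR, 95 with DESeq2, and 1021 at an unadjusted p under 0.05). The differences were log2 0.46 ± 0.14 for Itgb2 (adjusted p 0.39) and 0.47 ± 0.22 for Itgal (adjusted p 0.78).

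Whether bryostatin's effect on the leukocyte chains differed between LPS and no LPS was tested across the experiments, in 1 edgeR fit of all 27 libraries chosen after these values had been seen. The difference, bryostatin's effect with LPS minus its effect alone, passed for 3 subunits, all lower with LPS, beside 1.87% of the 16647 genes in that fit. For Itgam it was log2 -1.42 ± 0.21 (adjusted p 0.00031), for Itgb2 -1.16 ± 0.20 (adjusted p 0.0017) and for Itgal -1.30 ± 0.34 (adjusted p 0.0495). Without both untreated libraries labelled replicate 1 they were -1.35, -1.0 and -0.98 and still passed. The effects come from separate experiments, so the experiment and the presence of LPS cannot be told apart.

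Itga4, Itgav and Itgb1 passed the test in none of the 8 comparisons of treatments, nor in the tests of differences. Itga4 is the alpha chain of VLA-4, the VCAM-1 receptor of leukocytes, Itgav is the alpha chain of the vitronectin receptors, and Itgb1 is the most widely used beta chain. Their untreated libraries differed widely from each other. Itgav had 291, 175 and 201 CPM in untreated cultures of experiment 1 and 133, 258 and 333 CPM in those of experiment 2. Itga4 had 19.6, 7.67 and 19.9 CPM with bryostatin, against 4.7, 8.27 and 13.7 CPM in untreated cultures (log2 0.82 ± 0.42, adjusted p 0.32, edgeR). Bryostatin replicate 2 was the low library here and for Itgav, which had 413, 196 and 375 CPM with bryostatin. Without the 3 libraries that lay apart, Itga4 (log2 0.83, adjusted p 0.01) and Itgav (log2 0.40, adjusted p 0.026) passed. For Itgb1 the 95% interval of the LPS difference ran from log2 -0.33 to 0.17 and that of bryostatin alone from -0.14 to 0.53.

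Within each experiment the order of the group means differed from gene to gene. For Itgam in experiment 1, LPS (76.4 ± 3.94 CPM, mean ± SD, n = 3) and LPS+bryostatin (70 ± 7.37 CPM) led, with overlapping libraries, and LPS+IFNγ (30.6 ± 4.42 CPM), LPS+IFNγ+bryostatin and untreated cultures followed, also with overlaps between neighbours. In experiment 2, IL-4+bryostatin and bryostatin overlapped at the top, and IL-4 and untreated cultures overlapped below them. For Itgb5 in experiment 1 the order of means was untreated, LPS+bryostatin, LPS, LPS+IFNγ+bryostatin and LPS+IFNγ, with no overlap between any neighbours. For Itgb3 the 3 highest libraries of the 27 were those with IL-4+bryostatin, at 37.7 to 45 CPM, and the remaining 24 lay between 3.55 and 14.2 CPM.

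The makeup of the Itgb2 partners was described on the deposited FPKM, which divides by gene length. With IL-4+bryostatin, Itgax made up 19.2 ± 1.84% (SD, n = 3) of the summed FPKM of Itgal, Itgam, Itgax and Itgad, and with IL-4 28.9 ± 5.17%, against 1.3 ± 1.28% in untreated cultures. Itgam held 68.2 ± 1.77% with IL-4+bryostatin and 44.2 ± 6.36% with IL-4. In experiment 1, Itgal held 69.6 ± 0.918% with LPS+IFNγ, 57.6 ± 3.57% with LPS and 43.4 ± 4.51% in untreated cultures. With LPS+bryostatin it held 45.2 ± 3.66%, below all LPS libraries. The summed alpha partners over Itgb2 came to 1.1 ± 0.134 with LPS+bryostatin, 1.15 ± 0.0433 with LPS and 0.412 ± 0.0416 with LPS+IFNγ, against 0.58 ± 0.0693 in untreated cultures. The libraries with LPS+bryostatin (1.02 to 1.26) and with LPS (1.1 to 1.18) overlapped, and both groups lay above all untreated libraries. These shares depend on the length used for Itgam: per base that it does not share with Gm49368, its share with LPS was 69.9% in place of 42.2%, which puts it above Itgal. On that length the ratio to Itgb2 was 2.42 ± 0.338 with LPS+bryostatin and 2.21 ± 0.147 with LPS, again overlapping, and 0.664 ± 0.0774 with LPS+IFNγ, against 1.28 ± 0.148 in untreated cultures. The share of Itgax with IL-4 was then 14.8% and that in untreated cultures 0.548%.

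**Figure D4:**
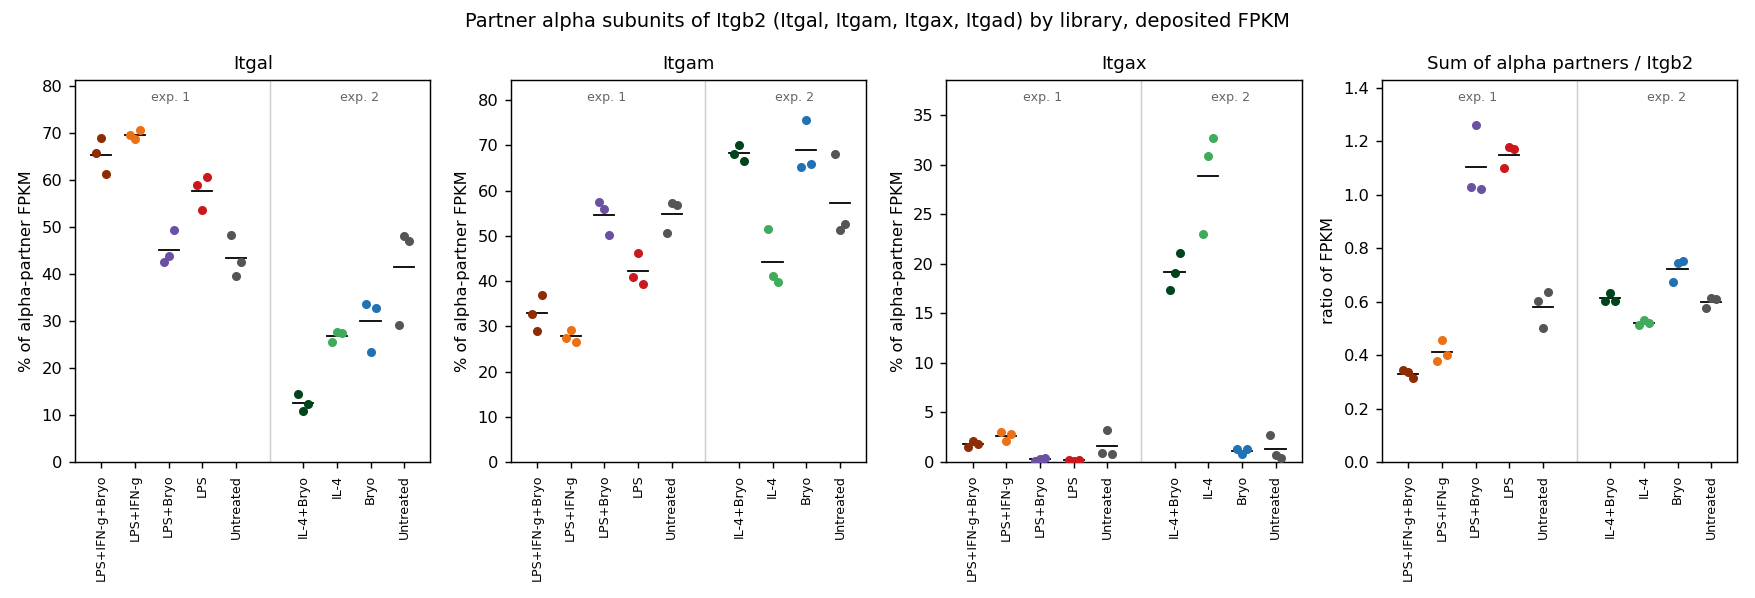
Share of Itgal, Itgam and Itgax in the summed FPKM of the Itgb2 partners Itgal, Itgam, Itgax and Itgad (percent), and the ratio of that sum to Itgb2, for each library; lines are means of 3. The share of Itgax lies between 17.4% and 32.7% in the 6 libraries with IL-4 and at most at 3.22% in all others.

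Of the beta chains that pair with Itgav, Itgb1, Itgb3 and Itgb5 were compared, and these are far from equal in level. Other beta chains were left out of the shares, and Itgb1 also pairs with Itga4 and Itga5. On deposited FPKM, Itgb5 made up 14.2 ± 1.68% of the sum of Itgb1, Itgb3 and Itgb5 with LPS+IFNγ and 21.1 ± 1.24% with LPS, against 33.1 ± 1.89% in untreated cultures. Itgb3 came to 1.32 ± 0.139% with IL-4+bryostatin and to at most 0.481% in any library of the other groups. Itgb1 held most of the rest, since it was 206 to 380 FPKM in all libraries.

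Of 16 other integrin subunits, 13 were measured in experiment 1, of which 2 rose and 3 fell with LPS (median log2 0.16), beside 38.4% of all genes called in that comparison. Over all genes measured the median log2 change lay between -0.03 and 0.02 in each of these comparisons, and over the 10 subunits it was -0.10 with LPS, 0.07 with LPS+IFNγ, 0.33 with IL-4 and 0.51 with bryostatin alone. These subunit medians include the untreated library labelled replicate 1 and were not computed without it. With 1 library left out, the bryostatin values ranged from log2 -0.04 to 0.36 for Itgb1 and 0.13 to 0.75 for Itgav. Itga6, a laminin receptor chain, fell by 1.38 on the log2 scale with LPS (adjusted p 1.1e-08, edgeR) and by 2.32 with LPS+IFNγ (adjusted p 1.4e-11). Itga2, a collagen receptor chain, rose by log2 1.62 with LPS+IFNγ (adjusted p 3.9e-06) and with bryostatin added to LPS (log2 1.27, adjusted p 0.00069) or to LPS+IFNγ (log2 1.18, adjusted p 0.0019). With bryostatin alone 1 of 12 rose (Itga10, log2 1.46, adjusted p 0.0481, edgeR), beside 3.62% of all genes. With IL-4 and with IL-4+bryostatin over IL-4 none of the 12 passed, beside 0.583% and 4.13% of all genes. Of 28 ligands and counter-receptors measured in experiment 1, 6 rose and 7 fell with LPS (median log2 -0.04, beside the same 38.4%). Those that rose included Vcam1, a ligand of Itga4 with Itgb1, at log2 3.42 (adjusted p 9.6e-12), and C3, whose fragment is bound by CR3, at log2 3.29 (adjusted p 3.1e-11). Icam1, the ligand of LFA-1, averaged 507 CPM with LPS+IFNγ and was log2 4.22 above untreated cultures (adjusted p 4e-15).

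Bryostatin moved the ligands Spp1 and C3 in opposite directions in all 4 settings. Spp1 (osteopontin, bound by Itgav with Itgb3 or Itgb5) rose by log2 2.57 alone, 2.70 with IL-4, 2.00 with LPS and 1.57 with LPS+IFNγ, with adjusted p-values from 8.3e-08 to 0.00012 (edgeR). C3 fell by 1.19, 1.15, 1.00 and 0.66 on the log2 scale in the same order, with adjusted p-values from 0.00032 to 0.029. Icam1 fell by 0.79 with LPS (adjusted p 3.3e-05) and by 0.34 with LPS+IFNγ (adjusted p 0.034). In all, 2 ligands rose and 2 fell of 27 with bryostatin alone, 2 and 1 of 27 with IL-4, 4 and 3 of 28 with LPS, and 4 and 2 of 28 with LPS+IFNγ, with list medians of log2 0.21, 0.02, -0.08 and 0.03. Over all genes, 3.62%, 4.13%, 6.89% and 3.38% were called in the same order.

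Of the 36 activators and adhesion adaptors measured in experiment 1, 11 rose and 11 fell with LPS (median log2 0.03), in the comparison in which 38.4% of all genes were called. Syk, a kinase that acts downstream of leukocyte integrins, rose with LPS by log2 1.72 (adjusted p 4.1e-11) and fell by log2 0.29 when bryostatin was added to LPS (adjusted p 0.031, edgeR). In the latter comparison 0 of 36 rose and 3 fell, beside 6.89% of all genes called. Cytip, which in leukocytes binds cytohesin and weakens LFA-1 adhesion, rose by log2 6.27 with LPS+IFNγ over LPS (adjusted p 9.9e-12). With bryostatin alone the list median was log2 0.36, against 0.00 over all genes, and was not computed without the untreated library labelled replicate 1. In this comparison 3 of 37 rose and 0 fell, beside 3.62% of all genes called. Syk was among them (log2 0.70, adjusted p 0.018, edgeR). Apbb1ip (RIAM), an adaptor that brings talin to integrins, was another at log2 0.76 (adjusted p 0.0088), and it rose with IL-4+bryostatin over IL-4 too (log2 0.80, adjusted p 0.0054). Fermt3, the kindlin of blood cells, rose there by log2 0.75 (adjusted p 0.038). Of the 10 membrane partners measured, 6 rose and 0 fell with LPS (median log2 0.73, beside 38.4% of all genes called), led by Cd47 (log2 1.90, adjusted p 3.8e-10), a membrane protein that binds Itgav with Itgb3. Plaur, the urokinase receptor, which associates with integrins, rose with bryostatin in all 4 settings, by log2 1.81 alone, 1.82 with IL-4, 0.83 with LPS and 0.82 with LPS+IFNγ, with adjusted p-values from 0.0016 to 0.0042 (edgeR).

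Genes with the most similar pattern were looked up among 11556 genes by the mean absolute difference in log2 change over the 7 treated groups, each against the untreated group of its experiment. Among the 3 nearest to Itga5 were Spidr and Ncoa7, at 0.08 and 0.12 log2 units, and among those nearest to Itgal were S1pr3 and Irf9, at 0.24 and 0.30. Nearest to Itgb5 were Haus1, Chst2 and Pitpnm2, at 0.11 to 0.14. Itgb2 was nearest to Elf4, Ptchd4 and Tfrc (0.17 to 0.19), Itgam to Samsn1, Cd53 and Lcp2 (0.24 to 0.29) and Itgb3 to Clcn5, Smap2 and Tlr8 (0.35 each). Itgax had no close neighbour: Gda, Flt1 and Gatm were nearest at 0.71, 0.98 and 1.03. All 3 had their largest values with IL-4+bryostatin and IL-4, at log2 4.44 and 3.84 for Gda, 2.90 and 2.57 for Flt1 and 4.42 and 3.87 for Gatm. The treated groups of an experiment share its untreated libraries, so these measures are descriptions.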

How the data were processed

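Per the labels and the submitters' processing notes, the authors made unstranded poly(A) libraries, trimmed reads with fastp, aligned them with STAR to mm10 and counted them per gene with featureCounts; their versions are unknown here. The deposited tables hold raw counts per gene, FPKM and gene length. Each library's deposited FPKM equals its count divided by gene length and library total, times 1 constant (0.901 to 1.19). Without strand, reads of antisense genes cannot be told apart.

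Counts were tested with edgeR 4.0.16 in R 4.3.3 (filterByExpr, TMM, robust quasi-likelihood F test, Benjamini-Hochberg adjustment over all genes, threshold 0.05), with each experiment fitted apart and all of its groups sharing 1 estimate of spread; 16073 and 15604 genes passed the filter. A standard error (SE) is the absolute log2 change divided by the square root of F. A 95% interval is built from it with the multiplier of a normal distribution. It is thus narrower than an interval that allows for the few libraries. On simulated counts, 183 of 200 genes changed by log2 1 were recovered for LPS against untreated, with 6 false calls, and 163 of 200 for bryostatin against untreated, with 8 false calls. A value of 3 counts corresponded to 0.106 to 0.2 CPM. No library duplicated another of its group beyond sampling noise (lowest chi-square per gene 2.925).

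The members and gene lists were chosen with earlier results of these data known. Named genes were all 10 members, up to 3 called genes in each direction per list and comparison, of which a selection is given, and 3 genes of the most similar pattern per member, among genes averaging at least 5 CPM in a group and for members that changed by log2 1 in a group; some are not reported here. Alternatives were DESeq2 1.42.0, its size factors in edgeR, all genes without filtering, a fit of the compared groups alone, a replicate block, each library left out, and the libraries that stood apart left out. Of the libraries that stood apart, IL-4+bryostatin replicate 2 had a chi-square per gene of 26.07 and 13.76 against the others of its group. LPS+IFNγ replicate 1, with 25.89 and 17.33, was not counted among them and was left out only singly. Promoters are RefSeq's for GRCm38.p6.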

Additional observations from a re-analysis of the deposited data

Results flagged for a closer look

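Bryostatin's effect on 3 leukocyte chains differed between cultures with LPS and cultures without it, in a test of the difference itself. The difference, with LPS minus alone, was log2 -1.42 for Itgam, -1.30 for Itgal and -1.16 for Itgb2. Each effect was taken against the matching group of its own experiment, so the experiment cannot be told apart from the presence of LPS, and the test was added after the values were seen.

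Itgb2 also moved in opposite directions in every library of another pair of settings. It was higher in all 3 libraries with IL-4+bryostatin than in any with IL-4 (log2 0.51, not past the threshold) and lower in all 3 with LPS+bryostatin than in any with LPS (log2 -0.43, adjusted p 0.013, edgeR). That difference was not tested.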

How the results depend on the processing

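Over all 10 subunits, 293 of 311 values of called subunits under the alternatives kept direction and call, 18 lost the call and 0 reversed. Of 1057 values of subunits not called, 985 kept direction and side of the threshold, 19 passed and 53 changed sign. Not all of these values are distinct. In comparisons within an experiment that use untreated cultures, the fit without untreated replicate 1 entered as a single library left out and again as an alternative of its own. The main counts of genes called were 1108 for LPS+bryostatin, 543 for LPS+IFNγ+bryostatin, 565 for bryostatin, 91 for IL-4, 644 for IL-4+bryostatin, and 19 and 0 for the tests of bryostatin's effect with LPS+IFNγ against LPS and with IL-4 against alone. With DESeq2 they were 879 for LPS+IFNγ+bryostatin, 1337 for bryostatin, 223 for IL-4 (3 subunits, with Itgb2 and Itgb3), 1213 for IL-4+bryostatin, and 95 and 4 for the tests of differences. With the compared groups alone they were 3354 for LPS+bryostatin, 112 for the difference with LPS+IFNγ, 9 for bryostatin (0 subunits), 41 for IL-4 and 2703 for IL-4+bryostatin. With no filter the difference with LPS+IFNγ had 55.

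Without the untreated library labelled replicate 1, they were 2148 for LPS+bryostatin (4 subunits), 1380 for LPS+IFNγ+bryostatin (2 subunits), 114 for the difference with LPS+IFNγ and 1355 for IL-4+bryostatin, with 1 subunit for bryostatin and 2 for IL-4. Subunits not called changed sign there: Itgb1 was log2 0.12 with LPS and -0.04 with bryostatin, and Itgam -0.00 with IL-4. Without the 3 libraries that lay apart in experiment 2, counts were 2284 for bryostatin, 333 for IL-4, 2943 for IL-4+bryostatin (4 subunits) and 1 for the difference with IL-4, with Itgb1 at -0.00 for bryostatin and Itgam at -0.01 for IL-4. In the added test across experiments, leaving out both untreated libraries labelled replicate 1 gave 479 genes and DESeq2 gave 509, against 312. The cause of these shifts was not tested.

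Leaving out 1 library of the compared groups at a time, which for the comparisons with LPS, LPS+IFNγ or IL-4 as reference never leaves out an untreated one, counts ranged from 588 to 689 for LPS+bryostatin (2 to 3 subunits), 242 to 434 for LPS+IFNγ+bryostatin (0 to 1), 4 to 19 for the difference with LPS+IFNγ, 188 to 824 for bryostatin (1 to 2), 66 to 96 for IL-4 (1 to 2) and 172 to 371 for IL-4+bryostatin. Subunits not called ranged from log2 -0.18 to 0.12 for Itgb1 with LPS, -0.04 to 0.36 for Itgb1 with bryostatin, -0.00 to 0.15 for Itgam with IL-4, -0.13 to 0.36 for Itgax with IL-4+bryostatin and -0.02 to 0.09 for Itgb2 with LPS+IFNγ+bryostatin. With the replicate number as a block, bryostatin had 422 genes and IL-4 had 94, and no subunit's call changed. Whether the numbers pair the samples is unknown. Same-numbered deviations correlated at -0.58 to 0.61 (median 0.02) in experiment 1 and -0.72 to 0.82 (median 0.07) in experiment 2. Differently numbered ones correlated at -0.51 to 0.59 (median -0.01) and -0.75 to 0.74 (median -0.02). Such wide ranges cannot decide it. Depth limits Itgax outside the IL-4 groups, where it had as few as 2 counts.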
